A study of Mus musculus with 4 samples.

Results

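Fibroblasts of the mouse aorta in which neither Pi16 nor Dpp4 was counted are described here across 4 single-cell RNA libraries. Members were chosen by these counts in each barcode. A barcode was taken when it had at least 1000 unique molecular identifiers (UMIs, each the trace of 1 captured RNA molecule) and at most 10% of them from mitochondrial (mt-) genes. It also needed at least 4 UMIs summed over Pdgfra, Serpinf1 and Dpt, and 0 UMIs of Pi16 and Dpp4. Barcodes of other cell types were kept out by limits on Acta2, Tagln, Myh11 and Myl9 (under 3% of UMIs together), on Col2a1, Acan, Cytl1 and Ibsp (at most 4 UMIs), on C1qa, C1qb and C1qc (at most 2) and on Pecam1 and Cdh5 (at most 1). This left 1309 barcodes, called double-negative fibroblasts below, of 37865 kept and 70795 deposited barcodes. A further 1152 barcodes passed every limit but had at least 1 UMI of Pi16 or Dpp4, and are called Pi16/Dpp4 fibroblasts.

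The series measured whole digested aortas by 10x Genomics 3' sequencing, with 1 library for each of 4 groups of mice. The normal-diet groups are wild type (WT) or LysM-DKO, and their labels name no Apoe allele. The western-diet groups are WT/ApoE-/- and LysM-DKO/ApoE-/-, so both lack Apoe, and diet and Apoe genotype differ together. LysM is the older name of Lyz2, whose promoter drives Cre in macrophages, neutrophils and other myeloid cells in lines of that name; the labels do not spell out DKO, but the series title names epsins, and the study is known for mice without epsins 1 and 2 in myeloid cells. Age, diet length and the number of mice per library are not given in the sources used here. Values for the 4 libraries are given throughout in the order WT normal diet, LysM-DKO normal diet, WT/ApoE-/- western diet, LysM-DKO/ApoE-/- western diet. Each group is 1 library, so no difference between groups was tested, and every 95% interval covers counting error only.

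Adventitial fibroblasts build the outer coat of the artery, where they lay down collagen and proteoglycans, secrete complement proteins and chemokines, and can turn into matrix-rich or myofibroblast-like cells in disease. Pi16, a secreted or membrane-bound peptidase inhibitor, and Dpp4, a cell-surface dipeptidase, mark a fibroblast state found around vessels in many organs that is often described as progenitor-like. Fibroblasts that lack both are commonly seen as more specialised or more tissue-resident cells, but in droplet data a count of 0 is not proof that a gene is silent.

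The fibroblast label was checked against Dcn, the small collagen-binding proteoglycan decorin, which was not part of the rule. Its level was 12237, 10252, 9503 and 10594 in the 4 libraries as UMIs scaled to a total of 1000000 (CPM), with at least 1 UMI in 99.2% to 99.7% of the barcodes. Dcn does not tell apart the Spp1-rich barcodes of the WT/ApoE-/- western-diet library described below, so for these the label rests on the rule alone. The rule itself used Pdgfra (345, 363, 415 and 377 CPM), a growth factor receptor, Serpinf1 (1366, 1132, 584 and 1202 CPM), an anti-angiogenic serpin, and Dpt (1219, 1096, 474 and 642 CPM), a matrix protein, so these levels only describe the choice. Barcodes at the limit of 4 fibroblast-gene UMIs numbered 30, 53, 84 and 46 and had Dcn at 8280, 10346, 7956 and 8331 CPM. Just outside it, barcodes with 3 such UMIs that met every other limit numbered 35, 62, 140 and 41 and had Dcn at 4966, 5053, 6204 and 4039 CPM. On the other side of the rule, 121, 148, 94 and 101 barcodes missed membership by exactly 1 UMI of Pi16 and Dpp4.

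The double-negative fibroblasts numbered 336, 399, 306 and 268 barcodes with 1365588, 1726772, 1752036 and 1189227 UMIs, a median of 3692.5, 3737, 3764.5 and 3636 UMIs per barcode. Libraries shared between 38 and 129 barcode sequences pairwise, none of them among the double-negative fibroblasts. Apoe stood at 4731, 6470, 10.8 and 10.9 CPM, near 0 in both libraries labelled ApoE-/-. Xist stood at 1109, 1156, 1.1 and 0.8 CPM and the Y-linked Ddx3y at 0, 0, 99.9 and 124 CPM, so the sex of the mice differs between the normal-diet and western-diet libraries; the file headers also name different Cell Ranger versions for them. Diet, Apoe genotype, sex and processing version cannot be told apart in these libraries.

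In the WT/ApoE-/- western-diet library a distinct set of barcodes entered the gate. Of its 306 double-negative fibroblasts, 82 (26.8%) had Spp1, which encodes the secreted phosphoprotein osteopontin, at 0.2% of their UMIs or more, against 1, 3 and 7 barcodes in the WT normal, LysM-DKO normal and LysM-DKO/ApoE-/- western libraries. These 82 barcodes held 99.2% of the Spp1 UMIs of that library's double-negative fibroblasts and had a median of 9034.5 UMIs, against 2845.5 in the rest. Their Dcn level was close to that of the rest, at 9335 against 9652 CPM, while Serpinf1 was 107 against 1007 CPM. They were richer in Lum, a collagen-binding proteoglycan (9147 against 4256 CPM), in Fn1, the gene of fibronectin (10620 against 4515 CPM), and in Tnfrsf11b, the osteoclast-inhibiting decoy receptor osteoprotegerin (504 against 175 CPM). The complement genes C3 (596 against 2016 CPM) and C7 (2.43 against 390 CPM) were lower in them.

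Because the gate asks for a number of UMIs and not a share, deep barcodes can pass it with a small share of fibroblast genes. In the same WT/ApoE-/- library 80 barcodes (26.1%) had Pdgfra, Serpinf1 and Dpt below 0.1% of their UMIs, against 19, 21 and 30 in the others in order, and 56 of these were also Spp1-rich. The genes that lead these barcodes are shared with modulated smooth muscle cells, and the summed level of the modulated smooth muscle list was 17003, 17900, 64757 and 25711 CPM. Of the 20 genes in that sum, 2 are gate genes. Values without the Spp1-rich barcodes, or with the added demand of a 0.1% share of fibroblast genes, therefore stand beside results below that rest on this library. Both alternatives were chosen after seeing the data.

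**Figure D1:**
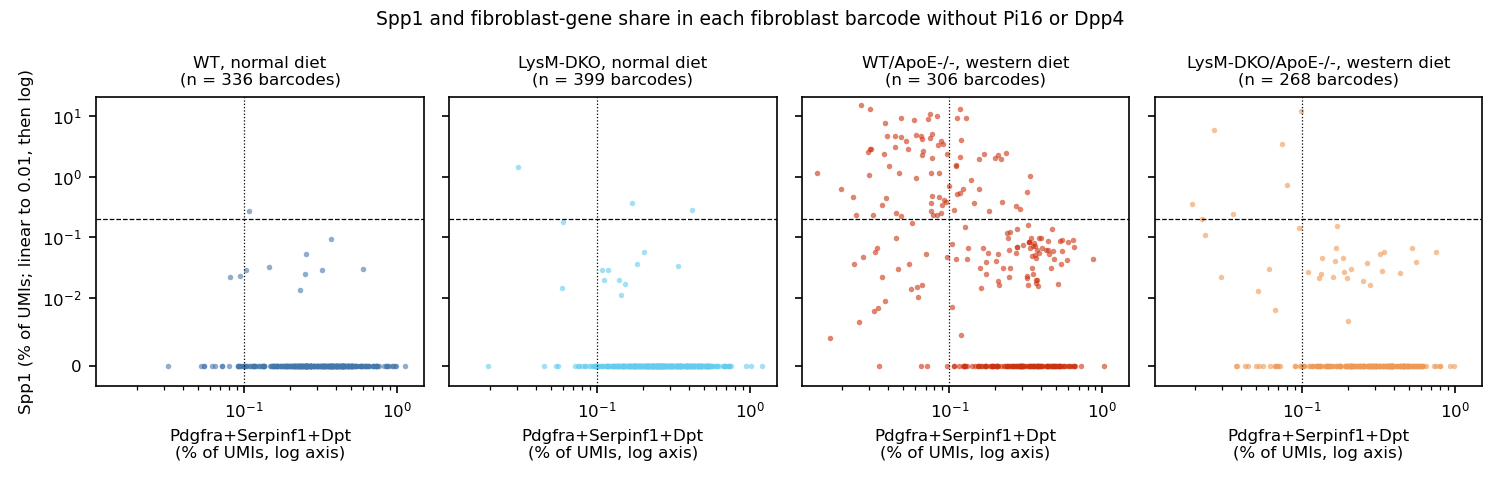
Each point is 1 double-negative fibroblast barcode, with Spp1 in percent of its UMIs (linear to 0.01, then log) against Pdgfra, Serpinf1 and Dpt in percent of its UMIs (log axis), in a panel per library with lines at 0.2% and 0.1%. In the WT/ApoE-/- western-diet panel 82 barcodes lie at or above 0.2% Spp1, against 1, 3 and 7 elsewhere.

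RNA of other cell types differed between the libraries and is given here as a measured background. Summed over each list, macrophage markers stood at 178, 270, 505 and 145 CPM, endothelial markers at 134, 793, 156 and 84.9 CPM and lymphocyte markers at 136, 297, 36.0 and 4.20 CPM. Fabp4, which is on the endothelial list, held 123 of the 183 UMIs of that list in WT on normal diet. It also made up most of the endothelial value of LysM-DKO on normal diet, as described below. Haemoglobin genes stood at 1697 and 6188 CPM on normal diet and at 93.0 and 5.89 CPM on western diet. Contractile genes stood at 7323, 7002, 8443 and 6737 CPM, and adipocyte markers at 46.1, 255, 22.3 and 39.5 CPM. Genes that tissue digestion is known to induce, such as Fos, Jun and Egr1, summed to 33999, 29492, 17873 and 27874 CPM. The macrophage, endothelial and contractile sums include gate genes that the rule capped, so they are partly set by the choice of barcodes. In WT on normal diet Acta2, a gate gene, held 3644 of the 10000 UMIs of the contractile list. The part of these levels in the results below was not tested.

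Double-negative fibroblasts made up 4.33% (95% interval 3.89 to 4.81), 4.85% (4.39 to 5.33), 2.23% (1.99 to 2.49) and 3.30% (2.92 to 3.71) of the kept barcodes. The order of the libraries changed with the denominator: of barcodes from the vessel wall alone (fibroblast, contractile, endothelial and chondrocyte barcodes) they were 9.99%, 12.9%, 4.36% and 3.93%. Among fibroblasts, 50.5%, 50.6%, 61.1% and 53.0% had no UMI of Pi16 or Dpp4. The higher WT/ApoE-/- value of 61.1% (56.7 to 65.4) was 54.2% without the Spp1-rich barcodes and 54.9% with the 0.1% share. After every fibroblast was thinned to 1000 UMIs, 74.7%, 73.1%, 79.4% and 76.5% had none, so the split between both classes moves with depth. A library shows shares of captured barcodes, and fewer cells of other types cannot be told apart from more fibroblasts.

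**Figure D2:**
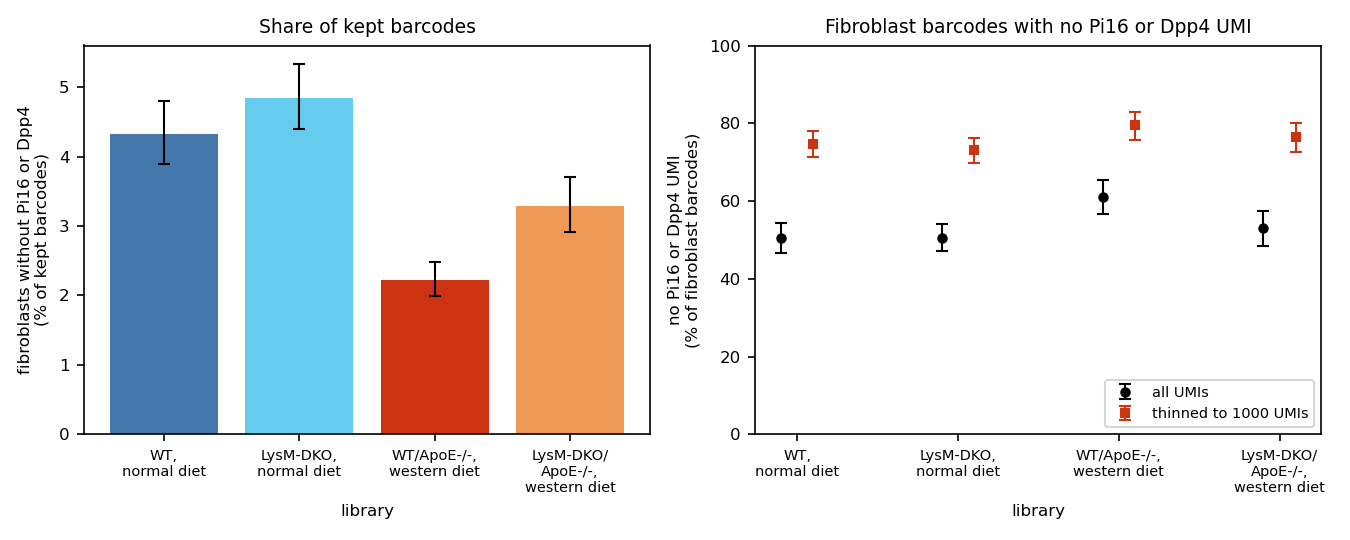
Bars on the left give double-negative fibroblasts in percent of kept barcodes, and points on the right give the percent of fibroblast barcodes without a Pi16 or Dpp4 UMI, from all UMIs and after thinning to 1000 UMIs; bars of error are exact 95% intervals for counting error. The WT/ApoE-/- western-diet library is lowest on the left, at 2.23%, and highest on the right, at 61.1% and 79.4%.

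Compared with the Pi16/Dpp4 fibroblasts of the same library, double-negative fibroblasts were lower in 169 genes (1.62% of 10456 tested) and higher in 102 (0.976%). The test was edgeR's quasi-likelihood test on UMIs summed per library and class, with the library as a block and adjusted p of at most 0.05. The 18 genes of the gate were left out, but all genes were read in the same barcodes as Pi16 and Dpp4, so the calls describe what goes along with those genes and give no independent support to the split. Without the LysM-DKO/ApoE-/- library 68 genes were lower and 18 higher, and without the Spp1-rich barcodes 240 were lower and 177 higher.

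Of 29 tested genes on a list of known companions of Pi16 and Dpp4, 24 were lower in double-negative fibroblasts and 0 higher, with a median log2 fold change of -1.45 beside 0.00 over all genes; that list was chosen for its link with Pi16 and is not independent evidence. Sema3c, a secreted guidance protein, stood at 41.7, 47.5, 49.7 and 46.2 CPM without Pi16 and Dpp4 and at 235, 309, 161 and 142 CPM with them. It was lower in all 4 libraries, as the rule for naming genes required, with a log2 fold change of -2.16 ± 0.18 (SE, edgeR adjusted p = 1.0e-04). Cd55, which protects cells from complement, stood at 34.4, 41.7, 46.8 and 22.7 CPM against 170, 255, 99.2 and 72.9 CPM (log2 fold change -1.98 ± 0.22). Sfrp4, a secreted Wnt inhibitor, stood at 245, 301, 376 and 299 CPM against 504, 698, 1417 and 1248 CPM (-1.56 ± 0.15). For each of these genes every value with Pi16 or Dpp4 lay above every value without. The rest of the 10 lower genes with the largest changes were Tmem100 (-2.19), Procr, the endothelial protein C receptor (-1.98), Ackr3, a chemokine scavenger (-1.72), Igfbp6, which binds insulin-like growth factors (-1.69), Ly6c1 (-1.62), Fndc1 (-1.60) and Cd248, also called endosialin (-1.57). In barcodes of 2000 to 5000 UMIs Procr was no longer called by edgeR, at -0.31 (adjusted p = 0.69). Igfbp6 lost its edgeR call without the LysM-DKO/ApoE-/- library (adjusted p = 0.075).

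The higher genes differed in how evenly the libraries shared them. Igfbp3, another insulin-like growth factor binding protein (ENSMUSG00000020427, chr11:7206086-7213923, minus strand, GRCm38), stood at 392, 396, 8.56 and 21.0 CPM against 96.8, 78.2, 4.73 and 10.4 CPM. Its log2 fold change was 2.03 ± 0.17 (edgeR adjusted p = 1.1e-04), and it was 2.18 with the 0.1% share. Enpp2, the lysophosphatidic acid producing enzyme autotaxin, stood at 84.9, 128, 88.5 and 44.6 CPM against 28.5, 38.6, 33.1 and 40.6 CPM (1.32 ± 0.21), so in LysM-DKO/ApoE-/- it was nearly level. Enpp2 lost its edgeR call with doublet-scored barcodes removed (adjusted p = 0.12) and without the LysM-DKO normal-diet library (adjusted p = 0.060). Thbs1, which encodes thrombospondin and is known to activate TGF-beta, stood at 231, 480, 894 and 735 CPM against 96.2, 209, 203 and 160 CPM (1.70 ± 0.17). In the LysM-DKO/ApoE-/- library 89.8% of the Thbs1 UMIs came from 5 barcodes, and the fold change was 0.91 with the 0.1% share.

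Spp1 had the largest change, 4.03 ± 0.70, with 19.8, 205, 14879 and 2249 CPM against 9.28, 75.7, 369 and 39.6 CPM. Leaving out the Spp1-rich barcodes, which were chosen by this gene, left 0.91, a value that describes the remaining barcodes and carries no test. Its call was lost with DESeq2 (adjusted p = 0.057) and, in edgeR, without LysM-DKO/ApoE-/- (adjusted p = 0.21). Tnc, the matrix protein tenascin C, stood at 25.6, 33.0, 325 and 110 CPM against 16.6, 15.4, 31.9 and 12.5 CPM (2.23 ± 0.37, and 1.65 without the Spp1-rich barcodes). It was 0.80 and not called by edgeR in barcodes of 2000 to 5000 UMIs (adjusted p = 0.32), and was not called with DESeq2 (adjusted p = 0.10) or, in edgeR, without LysM-DKO/ApoE-/- (adjusted p = 0.14). Vcam1, a leukocyte adhesion molecule, was higher by 1.17 ± 0.20 and Serpine2, a protease inhibitor, by 1.13 ± 0.20. Vcam1 was 0.27 and not called by edgeR in that UMI window (adjusted p = 0.19), nor without LysM-DKO/ApoE-/- (adjusted p = 0.15). Serpine2 was not called without that library in edgeR (adjusted p = 0.18), nor with DESeq2 (adjusted p = 0.072). Sncg (1.81, edgeR adjusted p = 0.0039) and Lgals3, the gene of galectin 3 (1.45, adjusted p = 0.0099), lost their edgeR calls with the 0.1% share, at adjusted p = 0.068 and adjusted p = 0.56. In the UMI window they were 0.47 and -0.56, and without LysM-DKO/ApoE-/- neither was called by edgeR (adjusted p = 0.086 and adjusted p = 0.068). Crispld1 (1.43) kept its call with the 0.1% share, at an edgeR adjusted p = 0.025, but not without the WT normal-diet library (adjusted p = 0.076) or without LysM-DKO/ApoE-/- (adjusted p = 0.20).

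Of 18 tested elastic fibre genes 7 were lower and 1 higher in double-negative fibroblasts, among them the microfibril genes Mfap5 (-1.28 ± 0.09) and Fbn1 (-1.0004 ± 0.10), while Eln itself, at 0.39 ± 0.16, was not called (adjusted p = 0.32). Of 18 modulated smooth muscle genes 8 were higher and 1 lower, and 6 and 1 with the 0.1% share. Complement genes numbered 1 higher and 4 lower of 14, chemokines and cytokines 3 and 4 of 33, and growth factors and their receptors 5 and 3 of 35. With the 0.1% share these were 2 and 1, 7 and 5, and 4 and 4. Of 25 genes linked with parenchymal fibroblasts 4 were higher and 4 lower. Their best-known members were not called by edgeR, with Col15a1 at 0.25 (adjusted p = 0.51), Penk at 0.22 (adjusted p = 0.81) and Cxcl12 at 0.17 (adjusted p = 0.39). None of 21 cholesterol synthesis and uptake genes and none of 15 epsin and endocytic adaptor genes was called, where edgeR called 2.59% of all genes.

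**Figure D3:**
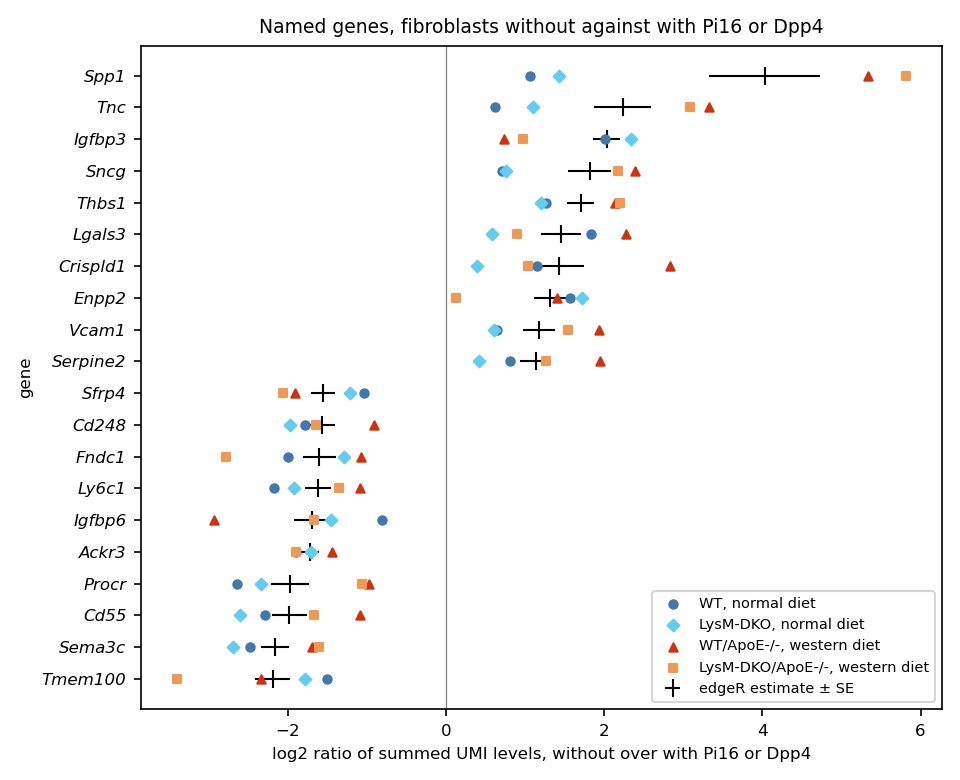
Coloured points give the log2 ratio of summed UMI levels without over with Pi16 or Dpp4 in each of the 4 libraries for the 20 named genes, and black crosses the edgeR estimate with its standard error. Every gene has 1 sign in all 4 libraries because the rule for naming genes required it. The Spp1 and Tnc ratios are larger in both western-diet libraries than in both normal-diet libraries.

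The question of the myeloid deletion was addressed by LysM-DKO against WT on each diet. On normal diet 278 of 9719 measured genes (2.86%) were at least 2 fold higher and 213 (2.19%) at least 2 fold lower in LysM-DKO, and on western diet 426 (4.4%) and 434 (4.48%) of 9684. A gene counted as measured with 20 UMIs or more over both libraries. Among the genes higher in LysM-DKO on both diets was Fkbp5, a chaperone partner of the glucocorticoid receptor and a known glucocorticoid target (chr17:28399094-28517527, minus strand). Fkbp5 stood at 25.6, 47.5, 78.8 and 183 CPM, a log2 ratio of 0.88 (0.30 to 1.504) on normal and 1.22 (0.90 to 1.54) on western diet, or 0.98 there without the Spp1-rich barcodes. It was seen in 9.52%, 17.3%, 32.0% and 48.5% of the double-negative fibroblasts, or 2.68%, 5.26%, 8.17% and 17.5% after thinning to 1000 UMIs, against 2.34%, 2.28%, 3.69% and 2.70% of thinned lymphocyte barcodes. Lymphocyte barcodes had a median of 3416, 3677, 2140 and 2681 UMIs. In all other kept barcodes the Fkbp5 ratios had the same sign, at 1.46 and 0.77.

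Zbtb16, a transcription factor that is also a glucocorticoid target, moved the same way, at 107, 193, 58.8 and 207 CPM (0.85 and 1.81, and 1.52 on western diet without the Spp1-rich barcodes). Tsc22d3, another target of that hormone, stood at 82.7, 163, 132 and 131 CPM (0.97 and -0.01, and -0.35 on western diet without those barcodes). Other genes higher in LysM-DKO on both diets were Ramp2, a receptor partner for adrenomedullin (89.3, 185, 65.1 and 130 CPM), and Fzd4, a Wnt receptor (50.5, 97.9, 43.4 and 105 CPM). Penk, a precursor of enkephalin peptides, stood at 105, 185, 33.7 and 90.8 CPM, Gpc3, a membrane glypican, at 258, 446, 41.1 and 97.5 CPM, Itm2a at 69.6, 133, 9.70 and 34.5 CPM and the alcohol dehydrogenase Adh1 at 66.6, 125, 15.98 and 28.6 CPM. The western-diet ratios of these genes shrank when the Spp1-rich barcodes were left out, for Ramp2 from 1.001 to 0.38, for Fzd4 from 1.27 to 0.64, for Penk from 1.43 to 1.12, for Gpc3 from 1.24 to 0.45, for Itm2a from 1.805 to 1.01 and for Adh1 from 0.83 to -0.0049.

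Apod, a lipid-carrying lipocalin, came first when genes higher in LysM-DKO on both diets were ranked by the smaller of both ratios. Its ratios were 3.14 (2.95 to 3.36) on normal and 1.51 (1.20 to 1.83) on western diet, at 158, 1402, 73.1 and 208 CPM. One LysM-DKO normal-diet barcode alone held 63.2% of its 2421 UMIs there and 5 barcodes held 80.4%, so the height of that value is a matter of few cells. Without the Spp1-rich barcodes the Apod ratio was 1.73 on normal and 0.79 on western diet. Its thinned share of positive barcodes was 8.63%, 19.0%, 11.1% and 14.2%.

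Genes lower in LysM-DKO on both diets included Mmp3, the matrix metalloproteinase stromelysin, at 584, 293, 2356 and 996 CPM, with log2 ratios of -0.99 (-1.16 to -0.83) and -1.24 (-1.34 to -1.15), and -0.97 and -1.41 without the Spp1-rich barcodes. It was seen in 23.5%, 15.3%, 51.6% and 31.0% of barcodes after thinning, against at most 2.51% of lymphocyte barcodes. Thbs2, another thrombospondin, stood at 143, 82.8, 193 and 65.6 CPM, Tnfrsf11b at 42.5, 23.2, 329 and 180 CPM, Angpt2, a vessel-destabilising growth factor, at 66.6, 34.7, 93.6 and 53.8 CPM, and the lymphoid chemokine Ccl19 at 88.6, 55.0, 134 and 46.2 CPM. The files list Ccl19 under more than 1 identifier, so reads may be split between copies. The western-diet ratio of Thbs2 was -1.55 and became -1.73 when the Spp1-rich barcodes were left out, that of Ccl19 went from -1.52 to -2.20 and that of Tnfrsf11b from -0.87 to -0.77, or -1.97 with the 0.1% share. In the other kept barcodes the Mmp3 ratios were 0.12 and -3.82, and in Pi16/Dpp4 fibroblasts they were -0.69 and -2.01. Angpt2 kept no western-diet difference with the 0.1% share, at -0.01.

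On normal diet alone, the largest ratios came from acute-phase and B-cell-attracting genes in very few LysM-DKO barcodes. Saa3, an inflammatory serum amyloid, stood at 0.73, 172, 220 and 0.84 CPM, and its 297 UMIs in LysM-DKO came from 6 of 399 barcodes, 72.4% from 1 of them. Cxcl13, which attracts B cells, stood at 7.32, 372, 49.7 and 0 CPM, with 88.0% of the LysM-DKO UMIs in 1 barcode. Lcn2 (2.20, 71.8, 302 and 26.9 CPM) and Hp (3.66, 73.6, 400.1 and 70.6 CPM), both acute-phase genes, had 87.1% and 34.7% of the LysM-DKO normal-diet UMIs in 1 barcode. Fabp4 and Car3, known from fat cells, stood at 721 and 157 CPM in that library, with 63.0% and 97.1% of the UMIs in 1 barcode, where the adipocyte markers were also highest. Fabp4 is also on the endothelial list and made up most of its 793 CPM in that library. Among the lower genes, Sfrp2, a Wnt modulator, stood at 918 CPM in WT and 339 CPM in LysM-DKO (-1.44, -1.58 to -1.29), Ptx3, a soluble pattern recognition protein, at 351 and 156 CPM (-1.17), Hk2, a hexokinase, at 308 and 144 CPM (-1.10) and Fgl2 at 687 and 339 CPM (-1.02).

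On western diet alone, Rbp4, the retinol carrier, stood at 179 CPM in WT/ApoE-/- and 774 CPM in LysM-DKO/ApoE-/-, a log2 ratio of 2.11 (1.93 to 2.30), and 1.47 without the Spp1-rich barcodes. Hhip, an inhibitor of hedgehog signalling, stood at 39.4 and 189 CPM (2.26, and 1.48 without those barcodes). Gm10076 and Gstp1 were higher by 2.16 and 1.99, and by 2.02 and 2.06 without those barcodes. In all other kept barcodes they were higher by 2.04 and 1.62. Gsn, the actin-severing protein gelsolin, stood at 1988 and 5779 CPM (1.54, and 0.95 without those barcodes). Cxcl13 was at least 19.7-fold lower in LysM-DKO/ApoE-/-, where it had 0 UMIs against a floor of 3 UMIs. Col6a5, a collagen VI chain, was at least 29.0-fold lower, from 73.1 CPM. Prg4, the joint lubricant lubricin, stood at 883 and 79.0 CPM, but 72.3% of the WT/ApoE-/- UMIs came from 1 barcode, and the ratio of -3.47 was -0.63 without the Spp1-rich barcodes.

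Western diet with ApoE loss, against normal diet, gave the widest differences. All genes together were shifted by a median log2 ratio of 0.15 in WT and 0.19 in LysM-DKO, and diet ratios are given relative to that shift. On that scale 766 genes (7.79% of 9829) were at least 2 fold higher and 1092 (11.1%) lower in WT, and 441 (4.55% of 9685) higher and 717 (7.4%) lower in LysM-DKO. Before the shift was taken off, the higher genes were the majority, with 1057 (10.8%) higher and 838 (8.53%) lower in WT and 722 (7.45%) and 513 (5.3%) in LysM-DKO.

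Among the genes higher on western diet, C7, a late complement component (ENSMUSG00000079105, chr15:4988762-5063740, minus strand), was spread over many barcodes. It stood at 38.1, 17.95, 208 and 394 CPM, a relative log2 ratio for WT of 2.29 (1.88 to 2.75) and for LysM-DKO of 4.25 (3.74 to 4.84). The ratios were 3.16 and 4.33 without the Spp1-rich barcodes. It was seen in 4.17%, 2.76%, 24.8% and 29.1% of thinned barcodes, against at most 0.295% of lymphocyte barcodes, and both western-diet libraries lay above both normal-diet libraries. Relative to the shift of their own class, the C7 ratios were 2.25 and 3.18 in Pi16/Dpp4 fibroblasts and 3.64 and 1.97 in all other kept barcodes.

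Mmp13, the collagen-cutting collagenase 3, had 0 UMIs in both normal-diet libraries and 352 and 26.1 CPM in the western-diet libraries. Against 3 UMIs it was at least 160-fold higher in WT and at least 15.004-fold higher in LysM-DKO. In WT/ApoE-/- 614 of its 616 UMIs lay in the Spp1-rich barcodes, and in LysM-DKO/ApoE-/- all 31 lay in 2 barcodes. Mmp3, in contrast, was higher in WT by 1.86 (1.76 to 1.98) and in LysM-DKO by 1.58 (1.43 to 1.73), and by 1.62 and 1.18 without the Spp1-rich barcodes. Spp1 (9.38 and 3.27), Anxa8 (4.42 and 4.48), Fn1 (4.40 and 2.12) and Ereg, an epidermal growth factor receptor ligand (3.05 and 2.57), were also higher in both genotypes. Without the Spp1-rich barcodes the WT ratios were 3.98 for Spp1, 2.61 for Anxa8, 3.65 for Fn1 and 3.22 for Ereg. With the 0.1% share the LysM-DKO ratios of Spp1, Ereg and Fn1 turned to -0.83, -0.83 and -0.08. Tnfrsf11b, at 2.80 and 2.76, remained at 2.71 and 1.65 under that demand.

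Mmp13 and Mmp3 lie near each other on chromosome 9, and their promoters are shown because both genes were higher on western diet. The 250 bases before each start are from RefSeq (GRCm38.p6, plus strand), and capitals mark a match to TGANTCA, the AP-1 consensus, searched on both strands. The windows are chr9:7272264-7272513 and chr9:7445572-7445821, and the match begins 35 bases before the start of Mmp13 and 46 before that of Mmp3.
Mmp13: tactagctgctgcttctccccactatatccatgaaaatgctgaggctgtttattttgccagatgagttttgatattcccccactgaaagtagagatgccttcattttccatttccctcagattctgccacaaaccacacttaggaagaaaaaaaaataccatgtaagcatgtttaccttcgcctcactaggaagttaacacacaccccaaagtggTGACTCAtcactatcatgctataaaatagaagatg
Mmp3: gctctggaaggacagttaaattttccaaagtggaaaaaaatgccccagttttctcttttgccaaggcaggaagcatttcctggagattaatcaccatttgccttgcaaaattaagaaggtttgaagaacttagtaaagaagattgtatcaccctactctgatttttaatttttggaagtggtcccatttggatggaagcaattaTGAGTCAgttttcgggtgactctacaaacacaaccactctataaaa
The motif is in 6.75% of 32851 RefSeq promoter windows of that length, and a match describes letters, not binding.

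Beside Apoe, the genes lower on western diet in both genotypes were led by Igfbp3, Pou2f2, Hmox1, Ptx3, Il6, Tnfaip6 and Tmem88. Igfbp3 stood at 392, 396, 8.56 and 21.0 CPM, with relative log2 ratios of -5.62 (-6.51 to -4.93) and -4.39 (-5.06 to -3.85). It was seen in 17.0%, 14.5%, 0.327% and 1.87% of thinned barcodes, and the western-diet libraries lay far below the normal-diet libraries. Relative to the shift of their own class, its ratios were -4.38 and -3.001 in Pi16/Dpp4 fibroblasts and -3.36 and -4.14 in all other kept barcodes. Hmox1, the haem-degrading enzyme, stood at 752, 731, 62.8 and 65.6 CPM (-3.72 and -3.66), and haemoglobin RNA was also lower in these libraries. Il6, the cytokine, stood at 401, 370, 40.5 and 69.8 CPM (-3.45 and -2.59), and Tnfaip6, a hyaluronan-binding protein, at 362, 462, 43.9 and 90.8 CPM (-3.18 and -2.53). The neutrophil chemokine Cxcl1 stood at 1556, 1721, 376 and 617 CPM (-2.20 and -1.67). Ptx3 (-4.35 and -3.00), the transcription factor Pou2f2 (-4.66 and -4.09) and Tmem88 (-2.90 and -2.51) followed. Without the Spp1-rich barcodes the WT ratios were smaller, at -4.74 for Igfbp3, -4.23 for Pou2f2, -3.09 for Hmox1, -3.705 for Ptx3, -2.605 for Il6, -2.51 for Tnfaip6, -2.60 for Tmem88 and -1.86 for Cxcl1. The digestion-induced genes were also lower in WT/ApoE-/-, by a list median of -1.09 (-0.91 without the Spp1-rich barcodes), and by -0.37 in LysM-DKO/ApoE-/-.

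**Figure D4:**
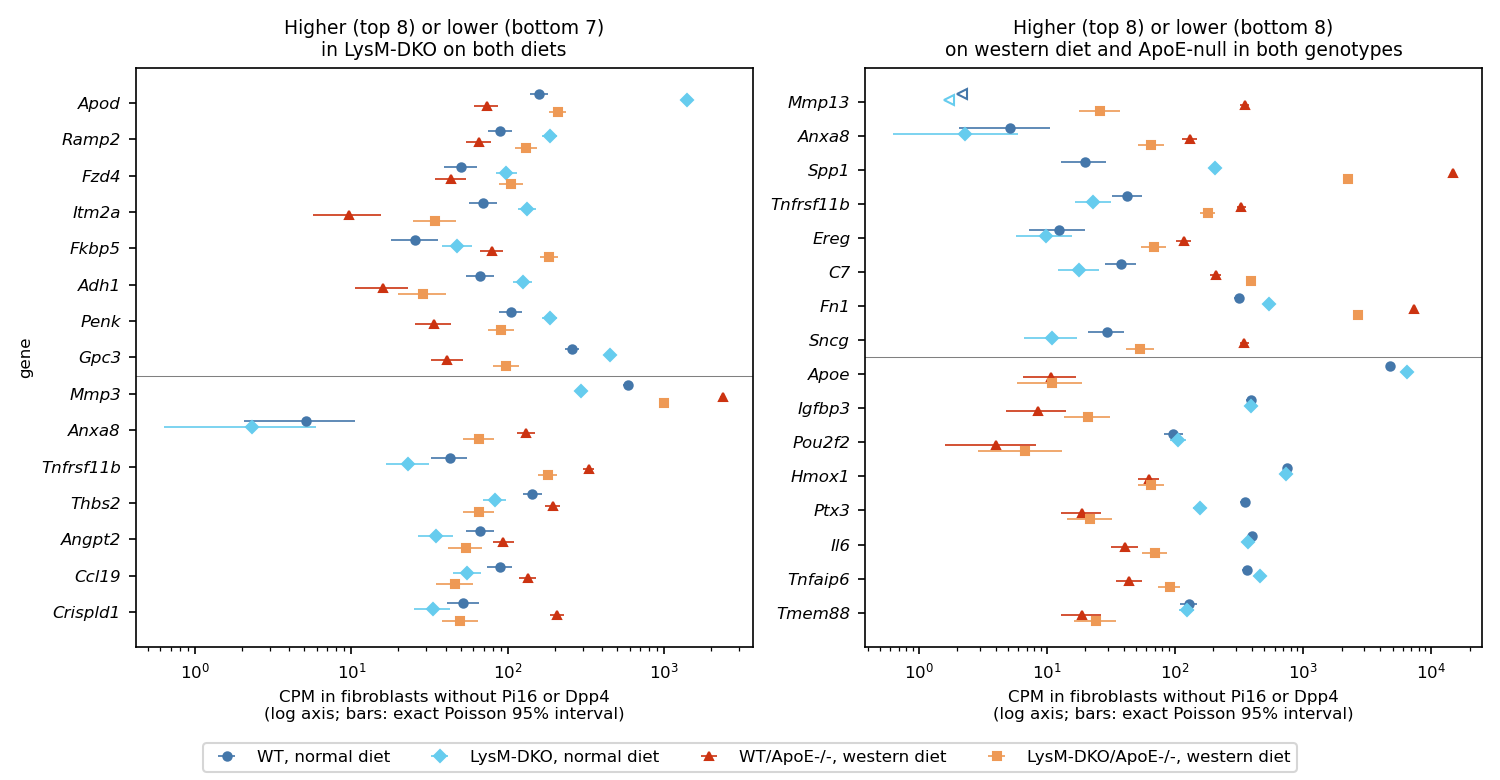
Levels in double-negative fibroblasts in CPM on a log axis, 1 point per library with exact 95% Poisson intervals, for the genes named for genotype (left) and for diet (right); open triangles mark 3 UMIs where a library had 0. C7 is higher, and Igfbp3, Hmox1 and Il6 lower, in both western-diet libraries than in both normal-diet libraries.

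Il6 and Cxcl1 both lie on chromosome 5, and their promoters are shown because both genes were lower on western diet. The windows are chr5:30012864-30013113 and chr5:90890995-90891244 (RefSeq, GRCm38.p6, plus strand), and capitals mark GGG, any 2 bases and TTTCC, a form of the NF-kappaB site, on either strand. Il6 has a match 44 bases before its start, and Cxcl1 has matches 89 and 71 bases before its start, the first on the other strand.
Il6: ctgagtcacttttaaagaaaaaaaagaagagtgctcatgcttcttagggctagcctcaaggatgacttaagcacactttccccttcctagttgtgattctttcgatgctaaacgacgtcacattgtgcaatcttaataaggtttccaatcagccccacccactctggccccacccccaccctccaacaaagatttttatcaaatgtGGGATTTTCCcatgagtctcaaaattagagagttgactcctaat
Cxcl1: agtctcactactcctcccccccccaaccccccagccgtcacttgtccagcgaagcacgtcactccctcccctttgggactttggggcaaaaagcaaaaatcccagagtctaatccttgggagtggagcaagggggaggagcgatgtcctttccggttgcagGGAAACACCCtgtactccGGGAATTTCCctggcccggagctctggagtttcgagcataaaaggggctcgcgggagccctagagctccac
Of all RefSeq promoter windows 1.41% hold this motif, and in the 4 windows shown it overlaps no match to TGANTCA. The Il6 window does hold such a match, TGAGTCA, left in small letters at its far end. TGANTCA is thus not confined to the windows of Mmp13 and Mmp3.

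The gene lists give the same comparisons by role. Over all measured genes, 7.79% were at least 2 fold higher and 11.1% lower on western diet in WT, and 4.55% and 7.4% in LysM-DKO, on the same relative scale. For fibrillar collagens, 6 of 8 measured genes were at least 2 fold higher on western diet in WT, with a median of 1.56, while in LysM-DKO none of 7 was higher and 1 was lower (median 0.39, and -0.15 with the 0.1% share). Col1a1 stood at 1413, 2050, 5790 and 3295 CPM and Col3a1 at 1017, 2188, 6302 and 3306 CPM. These collagens were higher in LysM-DKO than in WT on normal diet (0.54 and 1.11) and lower on western diet (-0.81 and -0.93), and -1.21 and -1.07 there without the Spp1-rich barcodes. Whether the genotype ratio differed between diets was not tested.

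Genes that mark activated fibroblasts, such as Postn and Tnc, were at least 2 fold higher in LysM-DKO for 6 of 19 on normal diet (median 0.78 beside -0.01 over all genes), with 0 lower, where 2.86% of all genes were higher. On western diet 0 of 18 were higher and 5 lower (median -0.56 beside 0.06), where 4.48% of all genes were lower. Of 16 genes 8 were lower with the 0.1% share (median -0.89), and 4 of 18 without the Spp1-rich barcodes (median -0.38). Postn, the matrix protein periostin, stood at 231, 540.3, 406 and 670.2 CPM, so it was higher in LysM-DKO on western diet too (0.72), but at -0.44 with the 0.1% share. The modulated smooth muscle list had 13 of 17 higher in WT on western diet (median 2.18, and 1.92 without the Spp1-rich barcodes). In LysM-DKO 5 were higher and 3 lower (median 0.46, and -0.83 with the 0.1% share). Between the western-diet libraries 0 were higher and 8 of 17 lower in LysM-DKO/ApoE-/- (median -0.96), beside 4.48% of all genes. That count was 7 of 17 without the Spp1-rich barcodes (median -0.77) and 12 of 17 with the 0.1% share (median -1.97). Of 14 glucocorticoid-responsive genes, Fkbp5 and Zbtb16 among them, 1 was at least 2 fold higher in LysM-DKO on normal diet (median 0.10) and 4 on western diet (median 0.34), with 0 lower on either. Of all genes 2.86% and 4.4% were higher. The western-diet count was 3 with the 0.1% share (median 0.37) and 2 without the Spp1-rich barcodes (median 0.28).

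Of the chemokines and cytokines, 16 of 33 were at least 2 fold lower and 7 higher on western diet in WT (median -0.88), beside 11.1% and 7.79% of all genes. In LysM-DKO 19 of 32 were lower and 1 higher (median -1.40), beside 7.4% and 4.55%. The WT count was 14 lower and 8 higher without the Spp1-rich barcodes (median -0.72) and 13 and 8 with the 0.1% share (median -0.52). Ccl2, which attracts monocytes, stood at 409, 532, 109 and 194 CPM, and Ccl11, which attracts eosinophils, at 106, 280, 29.7 and 15.1 CPM. Cxcl12, which retains haematopoietic cells, was above the all-gene shift in WT, at 611, 780, 1248 and 643 CPM (0.88 and -0.46, and 1.16 in WT without the Spp1-rich barcodes). Of 13 complement genes 2 were at least 2 fold higher and 0 lower on western diet in WT (median 0.59), and of 14 in LysM-DKO 2 were higher and 5 lower (median -0.24). In WT 7 of 13 were higher without the Spp1-rich barcodes (median 1.07), and with the 0.1% share 5 higher and 1 lower (median 0.66). C3, the central complement protein, stood at 784, 1228, 1348 and 545 CPM, and was lower in LysM-DKO/ApoE-/- than in WT/ApoE-/- (-1.31, -1.43 to -1.18, and -1.79 without the Spp1-rich barcodes).

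Cholesterol synthesis and uptake genes had 10 of 20 at least 2 fold lower and 0 higher on western diet in WT (median -0.98), beside 11.1% of all genes lower. In LysM-DKO 4 of 19 were lower (median -0.43), beside 7.4%. The WT count was 7 of 18 without the Spp1-rich barcodes (median -0.83) and 6 of 15 with the 0.1% share (median -0.73). Insig1, a sterol sensor partner, stood at 100.3, 70.7, 34.2 and 37.8 CPM. Abca1, which exports cholesterol, stood at 76.2, 79.9, 223 and 126 CPM (1.39 and 0.47), and was lower in LysM-DKO/ApoE-/- than in WT/ApoE-/- by a log2 ratio of -0.82 (-1.10 to -0.54). Abcg1, the exporter in the series title, stood at 3.66, 4.63, 37.1 and 6.73 CPM, from 5, 8, 65 and 8 UMIs. Without the Spp1-rich barcodes the Abca1 genotype ratio was -0.77 and that of Abcg1 -1.42, from -2.39.

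Epn1 stood at 22.7, 29.0, 28.5 and 27.7 CPM and Epn2 at 68.1, 53.3, 100.5 and 66.4 CPM. Both genes encode epsins, adaptors of clathrin-coated endocytosis. The Epn1 genotype ratios were 0.34 (-0.32 to 1.05) and -0.03 (-0.72 to 0.62), and those of Epn2 -0.35 (-0.79 to 0.08) and -0.59 (-0.998 to -0.21). The deletion is driven in myeloid cells by its name, so these values do not check it. Of the 15 measured epsin and endocytic adaptor genes none was past 2 fold between genotypes on either diet, where 5.05% and 8.88% of all measured genes were.

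**Figure D5:**
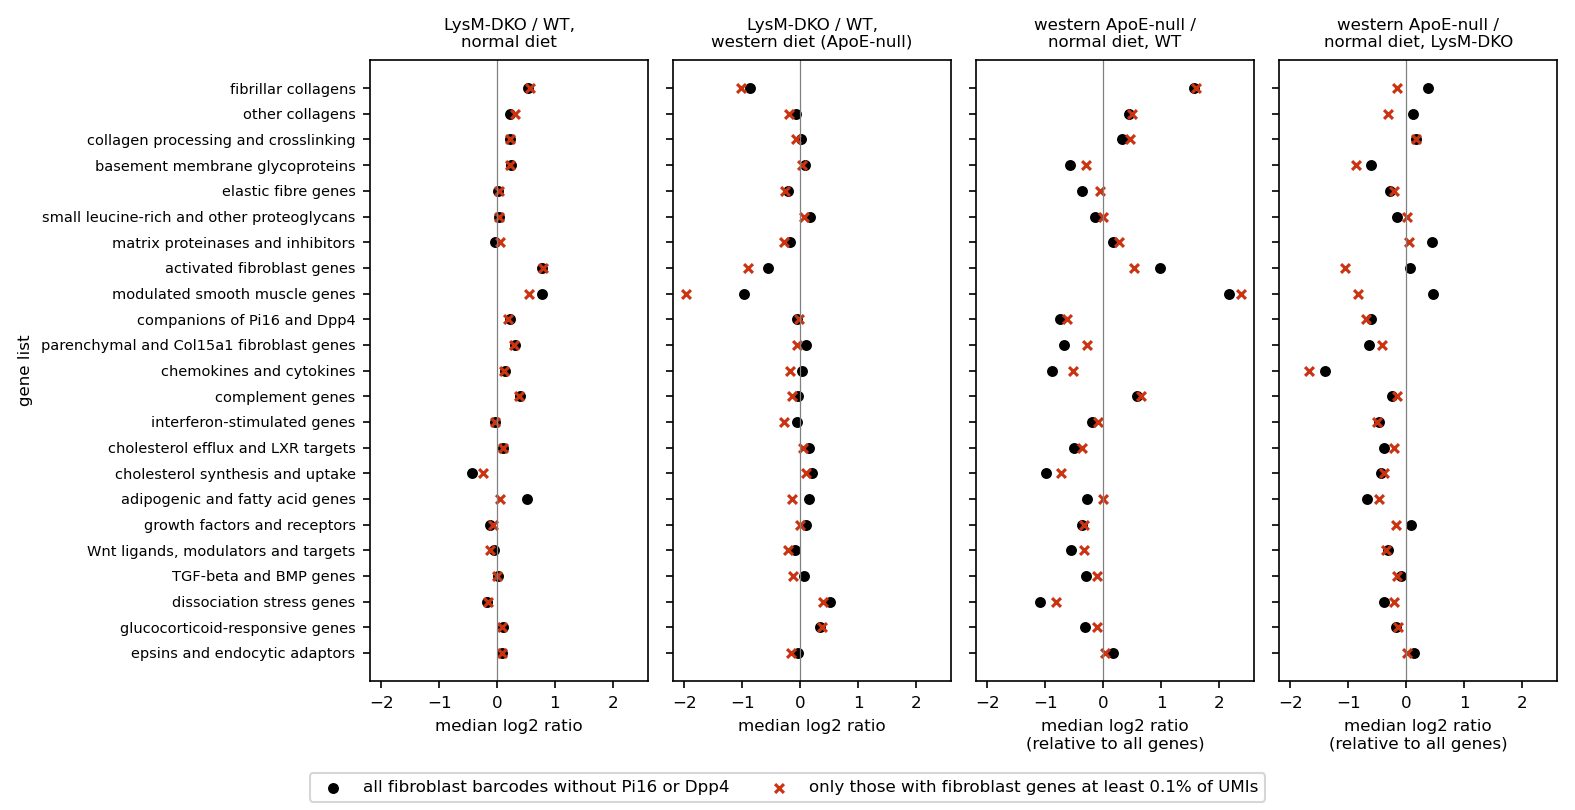
Black points give the median log2 ratio of each gene list in double-negative fibroblasts for the 4 contrasts, with diet contrasts relative to the all-gene median, and red crosses the same with fibroblast genes at 0.1% of UMIs or more. Fibrillar collagens are at 1.56 in the WT and 0.39 in the LysM-DKO diet contrast, and the latter is -0.15 with the 0.1% share.

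The double-negative fibroblasts also varied among themselves within each library. Of 1077 genes ranked after thinning each barcode to 1000 UMIs, the variance-to-mean ratio was highest for Gm42418 (lowest library 20.04), Mgp, a calcification inhibitor (11.8), Cst3, a cysteine protease inhibitor (8.09), Gsn (7.15) and Igfbp5 (6.96), where the median over all ranked genes was 0.989. The 10% of barcodes richest in Igfbp5 held 67.9%, 64.3%, 62.5% and 52.3% of its UMIs. For Mmp3 they held 74.1%, 85.1%, 51.6% and 65.7%. Several of these genes were also seen in thinned lymphocyte barcodes. There Gm42418 was in 100%, 100%, 99.9% and 100% of barcodes and Mgp in 72.7%, 81.3%, 64.3% and 56.8%. Cst3 was in 24.8%, 31.0%, 23.9% and 21.6% and Gsn in 20.9%, 25.0%, 11.1% and 5.41%. Dcn, at 8.79%, 14.0%, 13.1% and 5.41%, did not reach the share of Mgp. The source of these counts was not tested. Among 105 pairs of the 15 most variable genes, Col3a1 and Col1a1 went together most closely, with a correlation across barcodes of 0.36, 0.51, 0.70 and 0.55 over 336, 399, 306 and 268 barcodes that share a library. Cst3 and Fth1, a ferritin subunit, followed at 0.24, 0.22, 0.26 and 0.23.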

How the data were processed

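The deposited UMI counts are whole numbers per gene and barcode, made by the authors with Cell Ranger. The file headers name version 6.0.1 for the normal-diet and 6.1.2 for the western-diet libraries, while the submitters' processing notes name Cell Ranger 6.1.2, Seurat 4.1.0 and mm10. No cell annotation was used; the 1309 barcodes were found by the rule alone, and no doublet was removed (removal by Scrublet score, run in scanpy 1.11.5, was an alternative; it marks 39, 32, 12 and 16 of the members). The members, gene lists and naming rules were chosen with earlier results of these data known.

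UMIs were summed per library and class and scaled to CPM. Ratios between libraries added 0.5 UMIs, used genes with 20 UMIs or more, and carry exact 95% binomial intervals. Levels carry exact Poisson intervals. These cover counting error only. In data simulated by Poisson draws from the pooled normal-diet levels, 95.9% of ratio intervals held the true value over 9714 genes. Such draws hold counting error alone, so that share does not cover UMIs that gather in few barcodes or differences between mice.

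Fibroblasts without and with Pi16 or Dpp4 were compared by edgeR 4.0.16 (R 4.3.3; TMM, filterByExpr, quasi-likelihood, Benjamini-Hochberg). The library was the block, because each library gives both sums; the 4 libraries are 4 conditions, and nothing in the labels names separate animals. On simulated counts for this comparison, with 10225 genes, 85% of 200 genes changed by 2 fold were recovered, and 11 of 181 calls were false. That simulation gave every gene the same dispersion and each changed gene the same shift in all 4 libraries. Real ratios such as that of Spp1 differed between libraries, so these figures need not hold for the data. DESeq2 1.42.0 was an alternative, with other depth windows, limits, scalings and barcode weights.

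Named genes were, for the Pi16 comparison, the 10 largest called changes per direction with a mean of 50 CPM or more and 1 sign in all 4 libraries. For genotype and for diet they were the 8 per direction with the largest smaller ratio of both strata, and for each single contrast the 5 per direction with the interval bound farthest from 0; both rules needed members to be no lower than the other barcodes in the higher library of a contrast. For variation they were the 15 largest variance-to-mean ratios. Members of the lists were added as examples, and some genes that these rules name are not reported here. Python 3.11.15, numpy 2.4.6, scipy 1.17.1 and pandas 2.3.3 were used.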

Additional observations from a re-analysis of the deposited data

Results flagged for a closer look

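For 7 genes of the double-negative fibroblasts the LysM-DKO library lay above WT on normal diet and below it on western diet. The difference between the diets was not tested, and each group is 1 library. Spp1 had log2 ratios of 3.350 on normal and -2.725 on western diet, and 0.90 and -1.68 without the Spp1-rich barcodes. Saa3 had 7.293 (95% interval 5.39 to 13.18) and -7.450 (-13.34 to -5.55), with 1 UMI in the lower library each time. Cxcl13 had 5.599 and a fitted -6.892, where 0 UMIs in LysM-DKO/ApoE-/- allow only at least 19.7-fold lower. Lcn2 had 4.814 (3.45 to 7.33, against 3 UMIs) and -3.470, Hp 4.196 and -2.494, and Prg4 2.225 and -3.474. Cxcl14, a chemokine at 47.6, 171, 21.1 and 0 CPM, had 1.835 and a fitted -5.670, at least 8.37-fold lower. In LysM-DKO on normal diet the 5 richest barcodes held 96.3% of the UMIs of Spp1, 99.7% of Saa3, 95.8% of Cxcl13, 96.0% of Lcn2, 92.9% of Hp, 70.2% of Prg4 and 42.4% of Cxcl14. The pattern was not particular to this class. Pi16/Dpp4 fibroblasts had the same signs for all of these genes, with Saa3 at 8.12 and -2.93. All other kept barcodes had them for all but Spp1 (-0.50 and -3.93), with Saa3 at 3.11 and -3.66 and Lcn2 at 2.13 and -2.85.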

How the results depend on the processing

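Leaving out the library block gave 4 genes called between the fibroblast classes in place of 271; the pairing comes from the library that both sums share. DESeq2 called 144, no low-count filter 639 and the fit without Spp1-rich barcodes 417, and fits without 1 library called 86 to 322, the lowest without LysM-DKO/ApoE-/-. In barcodes of 2000 to 5000 UMIs 225 genes were called, but only 104 of the 271 main calls were among them. That window also keeps fewer barcodes and tests 7649 genes in place of 10456. Which of these changes lost the calls was not tested. Of the 280 gene values under alternatives for the 20 named genes of this comparison, 239 kept direction and call, 40 lost the call, and Lgals3 turned to -0.56 in barcodes of 2000 to 5000 UMIs.

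With at least 50 UMIs, 157, 405, 1153 and 577 genes were past 2 fold (genotype normal, genotype western, diet WT, diet LysM-DKO). In the 2000 to 5000 UMI window 433 (genotype western) and 969 (diet WT) were, and 563 (genotype western) without Spp1-rich barcodes. The share of kept barcodes was 6.32%, 6.64%, 3.04% and 9.75% in that window, 5.32%, 8.13%, 2.98% and 6.76% at 5% mt- UMIs, 2.73%, 2.86%, 0.866% and 1.70% with 8 fibroblast UMIs and 9.99%, 12.9%, 4.36% and 3.93% of wall barcodes; in WT/ApoE-/- it was 1.64% with the 0.1% share and 1.63% without Spp1-rich barcodes. The share without Pi16 or Dpp4 was 45.1%, 44.8%, 48.6% and 45.5% with 8 fibroblast UMIs and 74.7%, 73.1%, 79.4% and 76.5% after thinning, and in WT/ApoE-/- 50% in the window, 54.9% with the 0.1% share and 54.2% without Spp1-rich barcodes.

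Of 704 values for 88 named gene ratios 498 held, 197 moved and 9 reversed: Anxa8 to 1.34 and -1.18 in the window (genotype normal, diet LysM-DKO) and 0.39 with the 0.1% share (genotype normal), and, for diet in LysM-DKO, Ereg to -1.71, Fn1 to -1.54 and Sncg to -1.18 in the window, and Spp1 to -0.83, Ereg to -0.83 and Fn1 to -0.077 with that share. Of 1161 list medians 12 reversed: cell cycle (diet WT, 1.15) to -0.82, -0.58 and -0.53, macrophage (diet WT, -1.04) to 0.046, chondrocyte (diet LysM-DKO, -1.04) to 0.11, and adipocyte (3.96 and -3.95) to -0.18, -0.030, -0.21, -0.0039 and -0.17 (genotype normal) and 0.47 and 0.048 (diet LysM-DKO). The causes were not tested beyond the fewer barcodes or genes that each alternative keeps.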

Other observations

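Transcription factors that mark a position in the body or the heart field were measured in the double-negative fibroblasts. Gata6, which patterns the outflow vessels, stood at 196, 172, 185 and 243 CPM, and Tbx20, a cardiac T-box factor, at 81.3, 70.1, 6.85 and 1.68 CPM. Tbx20 was lower on western diet by relative log2 ratios of -3.66 for WT (95% interval -4.71 to -2.85) and -5.25 for LysM-DKO (-8.63 to -3.68). Tcf21, a fibroblast factor of the epicardium, stood at 32.2, 6.37, 3.995 and 6.73 CPM and was highest in the WT normal-diet library. Hoxb4 stood at 20.5, 10.4, 17.1 and 35.3 CPM, and Hoxc8 at 11.0, 20.3, 15.4 and 19.3 CPM, with intervals of all 4 Hoxc8 ratios that include 0.

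Of 16 measured cell cycle genes 8 were at least 2 fold higher and 4 lower on western diet in WT, beside 7.79% and 11.1% of all genes, with a relative median of 1.15. Without the Spp1-rich barcodes 1 of 9 was higher and 4 were lower (median -0.53). In the WT/ApoE-/- library Mki67, a proliferation marker, stood at 45.1 CPM, against 3.66, 8.69 and 11.8 in the others in order. Within the library it was 81.3 CPM in the Spp1-rich barcodes and 12.9 CPM in the rest, but only 14 of 306 barcodes had a Mki67 UMI, 1 of them held 39.2% of the UMIs and 5 held 84.8%.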
